A study of Mus musculus with 6 samples.

Results

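The mitochondrial ribosomal protein genes were the protein-coding genes of the deposited count table whose symbols begin with Mrpl or Mrps followed by a digit. There were 78 of them among 55573 genes, 49 named for the large subunit of the mitochondrial ribosome (Mrpl) and 29 for the small subunit (Mrps). The rule used symbols alone and no measured value, but it was set with earlier results of these data known. RNA was sequenced from 3 Abcc4-/- and 3 WT (wild-type) mouse samples, all labelled as megakaryocytes, which shed platelets from the bone marrow, and their titles carry the letters BM and CD41. Abcc4 encodes a membrane transporter that exports cyclic nucleotides and nucleotide-type drugs, and the series concerns how megakaryocytes form and the toxicity to them of the thiopurine 6-mercaptopurine. The labels give a genotype and a replicate number, but no treatment, age or strain, do not state which part of Abcc4 the allele removes, and leave unsaid if each sample was a different animal. The p-values below thus reflect only how much these 6 samples vary, possibly for technical reasons.

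The mitochondrial ribosome translates the few messenger RNAs made inside mitochondria, all of which encode subunits of the respiratory chain and the ATP synthase. Its ribosomal RNAs come from the mitochondrial genome, whereas its proteins are encoded in the nucleus, translated in the cytosol and imported. The large subunit forms the peptide bond and carries the exit tunnel, which is docked at the inner membrane, and the small subunit decodes the messenger RNA. Many of the proteins have bacterial counterparts whose numbers they share, and the higher numbers were given to proteins that the mitochondrial ribosome gained. Platelets carry mitochondria packed into them by megakaryocytes.

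The DNA just ahead of 4 of the 7 genes that differed between the genotypes is shown here because factors such as NRF1 and the ETS family protein GABP are known to act at promoters of nuclear genes for mitochondrial proteins. The bases come from the RefSeq promoter table of build GRCm38.p6, are read 5′ to 3′ on the strand of the gene, and were trimmed to the part outside every annotated UTR and coding sequence. Capitals mark a match to the motifs searched. The stretch for Mrpl49 is the spacer between the starts of Mrpl49 and Fau, which lie head to head.
Mrpl49, chr19:6057786-6057843, minus strand: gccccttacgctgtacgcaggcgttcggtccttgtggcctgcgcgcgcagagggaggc
Mrpl44, chr1:79775868-79775959, plus strand: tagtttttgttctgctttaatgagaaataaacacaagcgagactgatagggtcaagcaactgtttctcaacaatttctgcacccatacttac
Mrpl20, chr4:155802728-155802877, plus strand: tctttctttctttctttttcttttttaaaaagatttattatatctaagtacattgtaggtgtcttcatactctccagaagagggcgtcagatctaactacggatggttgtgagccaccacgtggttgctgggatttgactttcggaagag
Mrps21, chr3:95871520-95871664, minus strand: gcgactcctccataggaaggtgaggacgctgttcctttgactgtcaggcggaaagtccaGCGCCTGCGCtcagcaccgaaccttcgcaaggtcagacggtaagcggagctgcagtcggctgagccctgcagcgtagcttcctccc
Only the Mrps21 stretch held a match, the NRF1 letters (GCGC, any base, then TGCGC), and the 3 large subunit stretches held none. In the full windows, before trimming, 2 of the 7 called genes had the NRF1 letters (Mrps21 and Mrpl44) and 2 the ETS letters (Mrpl53 and Mrpl18). The SP1 letters were present for 2 of them (Mrpl49 and Mrpl18), and the YY1 letters and TATAAA for 0. The search of all members covered the 250 bases before the RefSeq start on both strands, and 69 of the 78 genes had a window. The ETS letters CCGGAAG were present for 26.1% of these genes, against 14.9% of 11154 tested genes with a window and 7.83% of the 27025 genes of the promoter table. The NRF1 letters were present for 14.5% of members, against 8.72% of tested genes and 4.23% of the table. Among members, NRF1 letters were present for 20.9% of the 43 large subunit genes and 3.85% of the 26 small subunit genes with a window, and ETS letters for 27.9% and 23.1% of them. The SP1 letters GGGCGG were present for 47.8% of members against 60.6% of tested genes, and TATAAA for 7.25% against 8.28%. The YY1 letters AAGATGGCG were found for 2.90% of members and 1.35% of tested genes. Overlaps between different motifs were not removed. These are matches of letters, and no binding was measured.

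The libraries held between 67009967 and 99294510 counts in Abcc4-/- and between 50440283 and 55123551 in WT, so every Abcc4-/- library was deeper. Abcc4 itself was at 60.1, 60.5 and 62.3 CPM (counts relative to the library size, scaled by the TMM method) in Abcc4-/- samples and at 74.2, 71.8 and 75.7 CPM in WT samples, a log2 fold change of -0.28 (SE 0.05, adjusted p = 0.00260, edgeR quasi-likelihood test). The groups did not overlap, the transcript was still counted in Abcc4-/- samples, and since the deleted part is not stated this total does not check the labels. Of 15 megakaryocyte marker genes, 10 were lower and 2 higher, with a median log2 fold change of -0.52. Their summed level was 450 to 496 CPM in Abcc4-/- and 513 to 574 CPM in WT. Nfe2, which was called higher, weighs most in this sum, at 244 CPM in Abcc4-/- and 208 CPM in WT. Together the 15 megakaryocyte markers took 0.0471% of all counts in Abcc4-/- and 0.0546% in WT, less than the neutrophil markers that follow. Of 12 neutrophil markers, 8 were higher and 1 lower, with sums of 40298 to 42861 CPM in Abcc4-/- and 22814 to 29600 CPM in WT, or 4.16% of all counts in Abcc4-/- and 2.68% in WT. Itga2b, which encodes CD41, averaged 96.1 ± 13.8 CPM in Abcc4-/- and 158 ± 17.3 CPM in WT samples. B cell markers were higher for 5 of 7 genes, with sums of 795 to 887 CPM in Abcc4-/- and 423 to 593 CPM in WT. T and NK cell markers were higher for 4 of 6, with a median log2 fold change of 1.09. Their sums were 106 to 115 CPM in Abcc4-/- and 85.1 to 109 CPM in WT. Most of these sums was Nkg7, which was not called, at 79.6 CPM in Abcc4-/- and 87.2 CPM in WT. Erythroid markers were higher for 2 of 6 genes, monocyte and macrophage markers lower for 2 of 6, eosinophil, basophil and mast cell markers lower for 2 of 5, and 0 of 6 cell-cycle markers were called. None of these markers was at 0 in all libraries. Over all genes tested, 8.61% were called higher and 8.68% lower. All results below come with these differences between the genotypes, and the part of other cell types in them was not tested. In bulk RNA, fewer cells of a type and less RNA per cell cannot be told apart. The share of megakaryocytes in these samples was not estimated, so the levels below are those of the whole sample and not of megakaryocytes alone.

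All 78 genes were counted in every library. The lowest count of any member in any library was 302, and all 78 passed the filter on low counts that left 16493 genes for the test. Levels per transcript length, in TPM (transcripts relative to all transcripts of the library) averaged over the 6 libraries, ran from 8.90 TPM for Mrpl1, a counterpart of the bacterial protein of the stalk next to the transfer RNA exit site, to 328 TPM for Mrpl33, a counterpart of a small bacterial large subunit protein. The median level was 45.3 TPM over large subunit genes and 37.9 TPM over small subunit genes, against 11.3 TPM over all genes tested. Most of these proteins are present in a single copy per ribosome. The transcript levels of the large subunit genes spanned a 36.9-fold range and those of the small subunit genes a 13.3-fold range.

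Mrpl33 had 357, 330.2 and 333 TPM in Abcc4-/- samples and 324, 319 and 306 TPM in WT samples, more than any other member in each library. Within the large subunit Mrpl52 followed with 129.99, 132 and 129 TPM in Abcc4-/- samples and 116, 148 and 116 TPM in WT samples, and WT replicate 2 stood above the other libraries. Mrpl30 had 116, 112 and 114 TPM in Abcc4-/- and 115, 117 and 115 TPM in WT. Mrpl24, the counterpart of a bacterial protein at the tunnel exit, had 88.4, 92.6 and 92.9 TPM in Abcc4-/- and 95.7, 103 and 96.9 TPM in WT. The lowest large subunit genes were Mrpl1, Mrpl47, Mrpl35 and Mrpl50, all with averages from 8.90 to 16.1 TPM. In the small subunit the highest were Mrps21 (156 TPM on average), Mrps18c (83.4 TPM), Mrps23 (78.1 TPM) and Mrps14 (69.1 TPM), and the lowest were Mrps31 (11.7 TPM), Mrps6 (12.7 TPM), Mrps30 (13.5 TPM) and Mrps22 (15.04 TPM). Some short genes lead this order, and RSEM divides by an effective length that becomes small and uncertain for short transcripts: the only coding transcript model of Mrpl33 has 478 bases, and the shortest ones of Mrps21 and Mrpl52 have 244 and 277 bases.

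**Figure D1:**
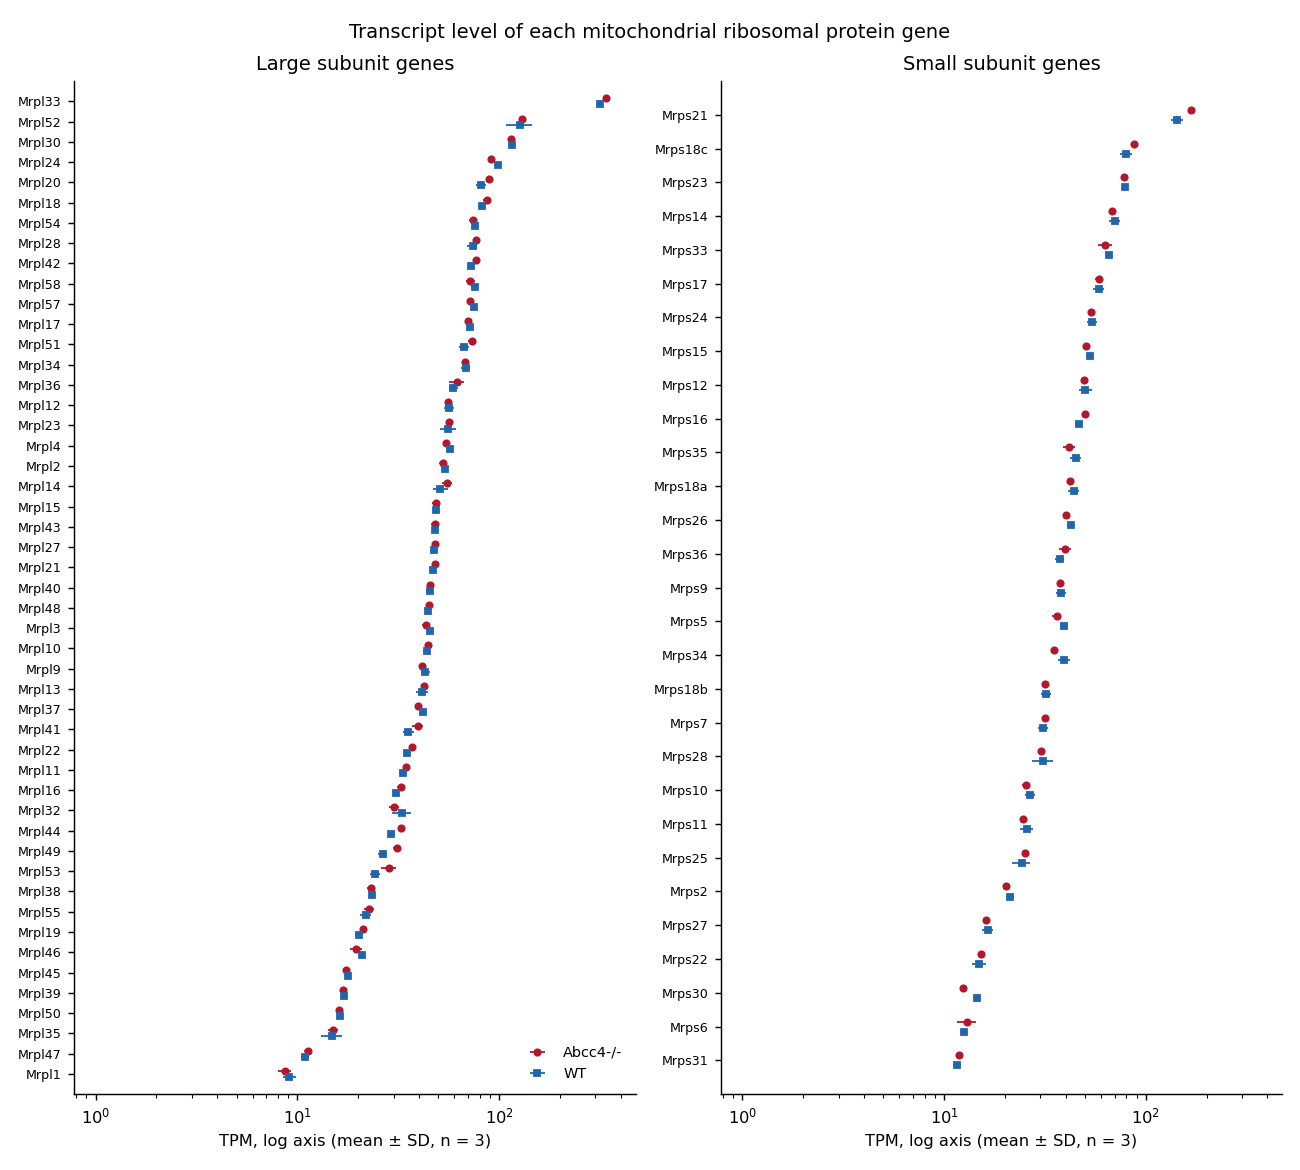
Mean TPM of each gene (log axis, points with SD over 3 samples) in Abcc4-/- (red circles) and WT (blue squares), large subunit left and small subunit right, ordered by level. The genes span 8.90 to 328 TPM while the genotypes nearly coincide for most of them.

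Between the genotypes the mitochondrial ribosomal protein transcripts differed little. A total of 7 genes rose in Abcc4-/- samples and 0 fell at an adjusted p below 0.05: Mrpl49, Mrpl33, Mrpl44, Mrpl53, Mrpl18 and Mrpl20 of the large subunit and Mrps21 of the small subunit. That is 8.97% of the 78 genes called, where 17.3% of all tested genes were called, 8.61% higher and 8.68% lower. Among the 7885 tested genes whose mean CPM lay within the range of the members, 19.5% were called and 9.89% were higher. The members' share called higher is therefore close to the background, and their share called lower is 0%. In all, 14 members had an unadjusted p below 0.05.

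The median log2 fold change, Abcc4-/- over WT, was 0.08 over large subunit genes and 0.05 over small subunit genes, against 0.00 over all genes tested. A fold change above 0 was found for 69 of 78 members, 44 of 49 large and 25 of 29 small, against 50.2% of all genes tested. With 1 library left out, the number above 0 ranged from 54 of 78 to 72 of 78. The lowest, without WT replicate 3, held 17 of the 29 small subunit genes, and the number was 62 without Abcc4-/- replicate 1. The direction also rests on the scale. On log2(TPM + 1), where the median of the same tested genes was -0.06, 36 of 78 members were above 0. After centring each library's log2(TPM + 1) on its median, 72 were. The CPM values of Abcc4-/- lay all above those of WT for 16 members and all below for 1, Mrps30, where 18.4% of all tested genes lay all above and 18.3% all below. The median absolute log2 fold change of the members was 0.07, against 0.13 over all genes tested and 0.10 over genes of like CPM. Members that were not called ranged from -0.15 (Mrps30) to 0.23 (Mrpl41). Over all 78 members the median SD within a genotype was 0.07 in log2 CPM, against 0.10 over all tested genes and 0.07 over genes of like CPM.

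**Figure D2:**
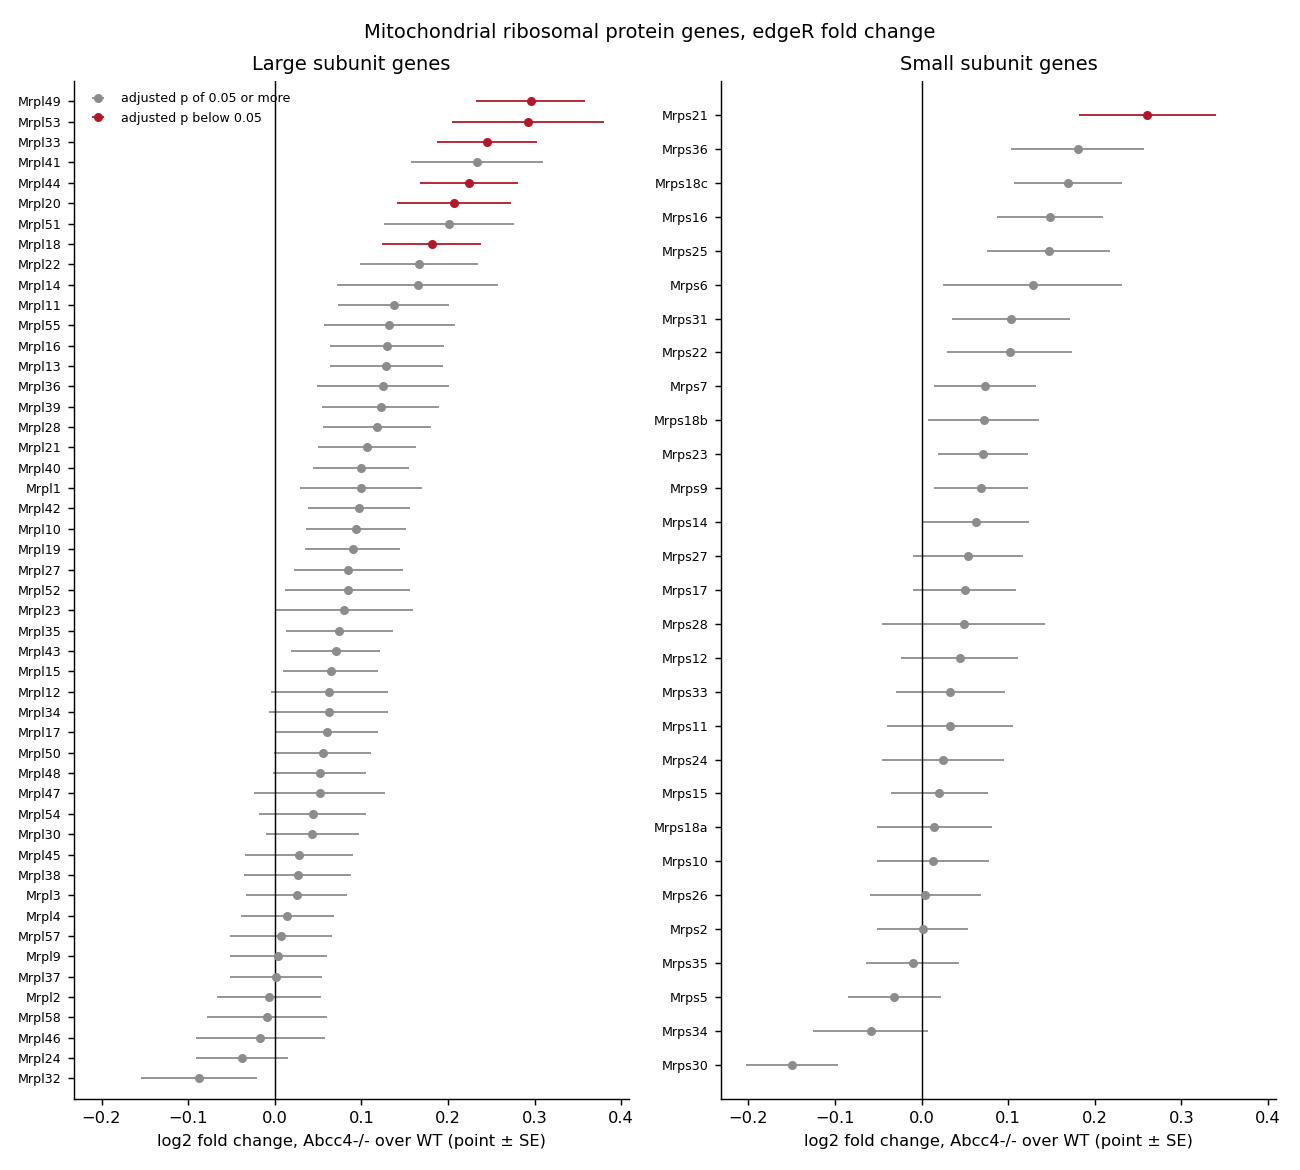
The edgeR log2 fold change of each gene, Abcc4-/- over WT, with its SE, large subunit left and small subunit right; red points passed an adjusted p of 0.05. Most points lie right of 0 on this scale, between -0.15 and 0.30. On log2(TPM + 1), where the median of all genes tested was -0.06, 36 of 78 genes were above 0, and 72 were after centring each library.

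Mrpl49, a large subunit protein without a bacterial counterpart (chr19:6053622-6057785, minus strand), showed the largest change. It had 35.97, 32.7 and 32.05 CPM in the Abcc4-/- samples, against 25.8, 28.6 and 27.6 CPM in the WT samples. The 3 Abcc4-/- values lay above all 3 WT values, and the log2 fold change was 0.30 (SE 0.06, adjusted p = 0.00849). It was the only member called under each of the 18 alternative settings, with adjusted p between 0.000148 and 0.0440. In TPM it averaged 31.3 ± 1.45 TPM in Abcc4-/- and 26.5 ± 1.37 TPM in WT samples. The neighbour Fau, whose start lies 59 bases away on the other strand, had a log2 fold change of 0.01 (adjusted p = 0.948).

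Mrpl33 (chr5:31596935-31664384, plus strand) had 107, 103 and 103 CPM in Abcc4-/- samples and 91.9, 91.5 and 80.98 CPM in WT samples, a log2 fold change of 0.25 (SE 0.06, adjusted p = 0.0138). Mrpl44 (chr1:79776018-79781445, plus strand), a mitochondria-specific protein with an RNase III-like fold whose human form is mutated in a cardiomyopathy, had 30.98, 30.9 and 30.1 CPM in Abcc4-/- samples and 27.7, 26.2 and 24.9 CPM in WT samples, a log2 fold change of 0.22 (SE 0.06, adjusted p = 0.0183). The groups did not overlap for either gene. Mrpl33 lost its call without Abcc4-/- replicate 1 (adjusted p = 0.0579), and Mrpl44 without Abcc4-/- replicate 1 or 2 (adjusted p of 0.0563 and 0.0710).

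Mrpl53 (chr6:83109040-83109939, plus strand), another mitochondria-specific protein, had 11.2, 10.4 and 11.9 CPM in Abcc4-/- samples and 9.12, 9.95 and 8.27 CPM in WT samples, a log2 fold change of 0.29 (SE 0.09, adjusted p = 0.0407). Its whole transcript of 695 bases is also part of a transcript of Gm42688 on the same strand, so the split of reads between the genes is uncertain. Gm42688 had 130% of the counts of Mrpl53 and a log2 fold change of 0.05 (adjusted p = 0.714). Summed over both genes, the level was 25.5, 23.3 and 25.6 CPM in Abcc4-/- samples and 22.5, 23.99 and 20.3 CPM in WT samples, and the groups overlapped.

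Mrpl18 (chr17:12911349-12916345, minus strand) is the counterpart of a bacterial protein that binds the smallest ribosomal RNA, and Mrpl20 (chr4:155802878-155809975, plus strand) that of a bacterial protein needed to assemble the large subunit. Mrpl18 had 62.3, 58.5 and 59.98 CPM in Abcc4-/- samples and 54.9, 55.2 and 49.3 CPM in WT samples, with a log2 fold change of 0.18 (SE 0.06, adjusted p = 0.0488). Mrpl20 had 38.1, 36.3 and 37.2 CPM in Abcc4-/- samples and 33.6, 34.2 and 29.01 CPM in WT samples, with a log2 fold change of 0.21 (SE 0.07, adjusted p = 0.0497). Both passed the threshold narrowly, and their groups did not overlap. The call of Mrpl18 was lost without any 1 of the 6 libraries (adjusted p from 0.0532 to 0.149), and those of Mrpl20 (0.0619 to 0.148) and Mrpl53 (0.0516 to 0.137) with each library left out except WT replicate 2. Mrpl41, the next gene in order of p, had 18.6, 16.4 and 17.8 CPM in Abcc4-/- samples and 15.1, 16.2 and 13.6 CPM in WT samples (log2 fold change 0.23, adjusted p = 0.0565).

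**Figure D3:**
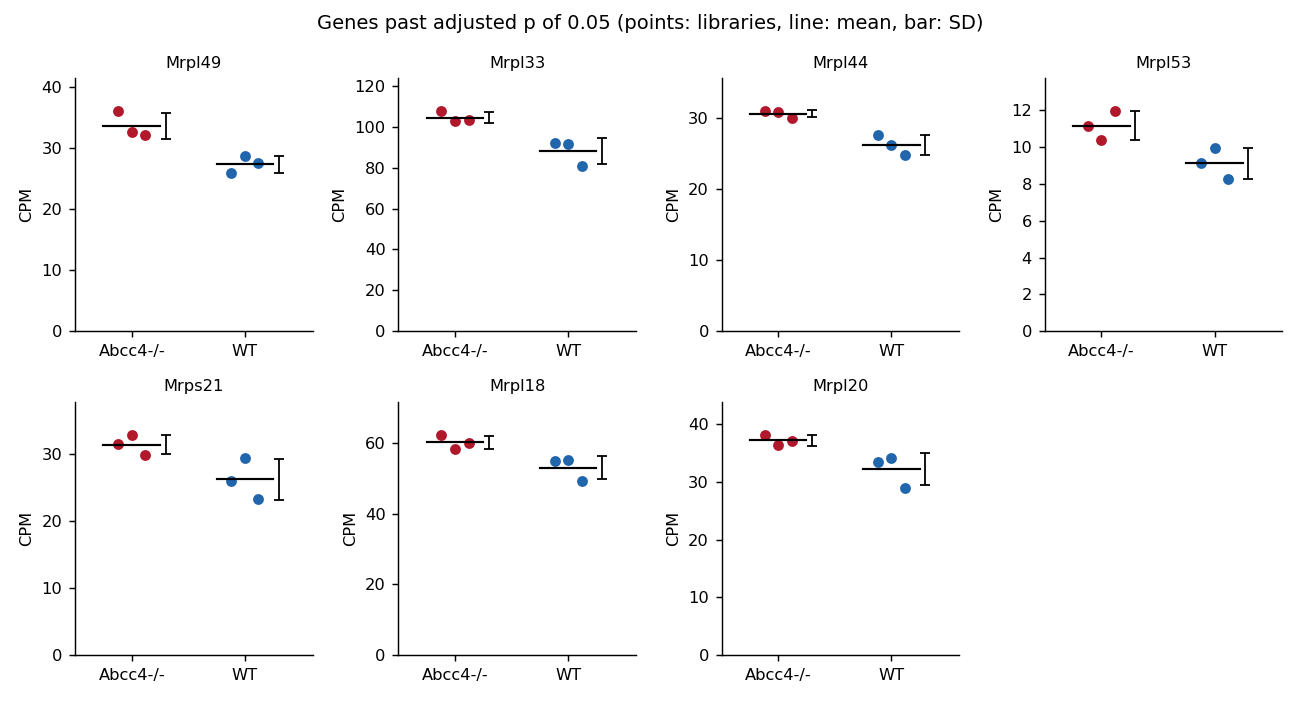
CPM of the 7 genes past an adjusted p of 0.05 in each sample (points, with mean line and SD bar, 3 samples per genotype), Abcc4-/- left and WT right in each panel, with axes from 0. In every panel the 3 Abcc4-/- points lie above the 3 WT points, by a modest step such as 33.6 ± 2.11 CPM in Abcc4-/- against 27.3 ± 1.40 CPM in WT for Mrpl49.

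In the small subunit, Mrps21 (chr3:95862634-95871519, minus strand), the counterpart of a bacterial protein of the small subunit platform, was the single gene called. It had 31.5, 32.9 and 29.9 CPM in Abcc4-/- samples and 25.9, 29.5 and 23.4 CPM in WT samples, a log2 fold change of 0.26 (SE 0.08, adjusted p = 0.0455). The groups did not overlap, but WT replicate 2 came close to the lowest Abcc4-/- sample, and Mrps21 had 1 of the 3 widest spreads within a genotype of all members. Its call was lost when replicate 1 or 3 of WT, or 1 or 2 of Abcc4-/-, was left out (adjusted p from 0.0988 to 0.153). The other members with wide spreads, Mrpl14 and Mrps28, were not called. Mrpl14 had 19.5, 18.4 and 16.7 CPM in Abcc4-/- samples and 16.96, 17.8 and 13.97 CPM in WT samples. Mrps28 had 14.1, 13.8 and 13.8 CPM in Abcc4-/- samples and 13.3, 15.5 and 11.5 CPM in WT samples, and WT holds both its highest and its lowest sample.

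Mrps30 was the member with the lowest log2 fold change, -0.15 (SE 0.05), which missed the threshold (adjusted p = 0.0758). It had 31.9, 29.97 and 29.6 CPM in Abcc4-/- samples and 34.4, 33.8 and 33.2 CPM in WT samples, without overlap. Its log2 fold change was below 0 under all 18 alternatives, from -0.22 to -0.12, with adjusted p between 0.0510 and 0.229. Despite its name, the protein sits in the large subunit in known structures.

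The Mrps18 paralogs descend from 1 bacterial protein, and in known structures Mrps18b and Mrps18c sit in the small subunit and Mrps18a in the large one. Their transcripts differed in level, at 83.4 TPM for Mrps18c, 43.1 TPM for Mrps18a and 31.8 TPM for Mrps18b on average. Mrps18c had 25.003, 23.4 and 22.7 CPM in Abcc4-/- samples and 21.3, 22.1 and 19.9 CPM in WT samples, which did not overlap (log2 fold change 0.17, SE 0.06, adjusted p = 0.0869). Mrps18a, with 22.5, 21.5 and 22.7 CPM in Abcc4-/- and 21.5, 23.99 and 20.5 CPM in WT, and Mrps18b, with 21.2, 20.4 and 20.3 CPM in Abcc4-/- and 19.3, 21.2 and 18.4 CPM in WT, overlapped between the genotypes (log2 fold changes 0.01 and 0.07, adjusted p = 0.913 and 0.491). None of the paralogs was called under any of the 18 alternatives.

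Leaving out single libraries changed the number of called members. It was 3 without WT replicate 1, 8 without WT replicate 2, 3 without WT replicate 3, 1 without Abcc4-/- replicate 1, 2 without Abcc4-/- replicate 2 and 4 without Abcc4-/- replicate 3. Calls over all genes tested fell as well, from 2852 of 16493 with all libraries. The lowest was 1760 of 16600 without Abcc4-/- replicate 2, and the highest 2415 of 16907 without WT replicate 3. With all libraries thinned to the smallest library total, 4 members were called, and 2694 of 16127 genes. On log2(TPM + 1), Mrpl33, Mrpl44, Mrpl53, Mrpl18 and Mrpl20 lost their calls and Mrpl49 and Mrps21 kept them.

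Compared as wholes, the large subunit genes together were slightly higher in Abcc4-/- samples in CPM and the small subunit genes were not separated. The CPM of the 49 large subunit genes summed to 1577, 1503 and 1478 in Abcc4-/- and to 1443, 1475 and 1351 in WT, or 1519 ± 51.7 in Abcc4-/- against 1423 ± 64.4 in WT (SD, n = 3 each), a ratio of 1.07. The lowest Abcc4-/- sum, 1478, lay just above the highest WT sum, 1475. The 29 small subunit genes summed to 742, 707 and 699.9 CPM in Abcc4-/- and to 693, 721 and 659.6 CPM in WT, 716 ± 22.4 in Abcc4-/- against 691 ± 30.8 in WT, and the groups overlapped. On the log scale, the mean log2 CPM of large subunit genes was 4.79 ± 0.05 in Abcc4-/- and 4.70 ± 0.06 in WT, and that of small subunit genes 4.51 ± 0.05 in Abcc4-/- and 4.45 ± 0.06 in WT.

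The sum of the large subunit over that of the small subunit in CPM was 2.13, 2.12 and 2.11 in Abcc4-/- and 2.08, 2.05 and 2.05 in WT, 2.12 ± 0.00773 in Abcc4-/- against 2.06 ± 0.0215 in WT. These values did not overlap and differed by 0.0615. In summed TPM the ratio was 2.16, 2.14 and 2.14 in Abcc4-/- and 2.16, 2.11 and 2.13 in WT, 2.15 ± 0.0122 in Abcc4-/- against 2.13 ± 0.0254 in WT, with overlap. The TPM sums of both subunits overlapped too, at 2700 ± 37.7 in Abcc4-/- against 2653 ± 63.5 in WT for the large subunit, and 1256 ± 10.998 in Abcc4-/- against 1246 ± 37.4 in WT for the small subunit. All members together took 0.223% of counts in Abcc4-/- and 0.212% in WT. The separation of the ratio thus appeared in CPM and not in TPM.

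**Figure D4:**
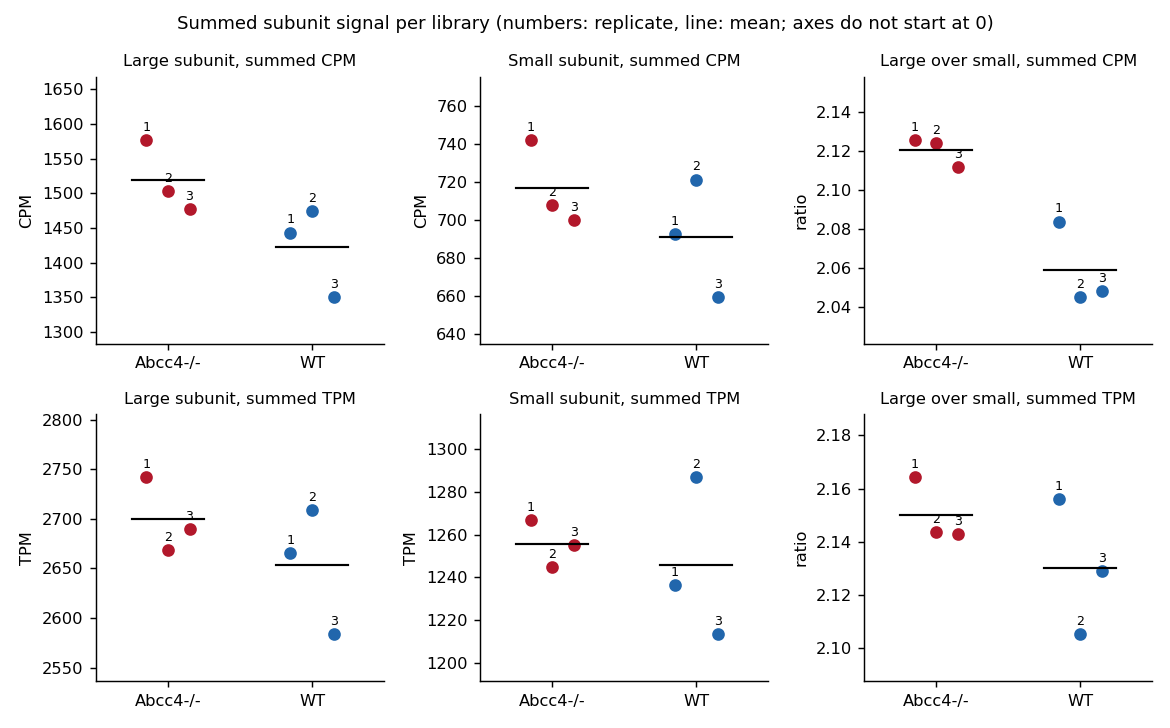
Summed CPM (top) and TPM (bottom) of large subunit genes, small subunit genes and their ratio in each library (numbered points, line at the mean, 3 samples per genotype), Abcc4-/- left; the axes do not start at 0. The ratio separates the genotypes in CPM, 2.11 to 2.13 in Abcc4-/- against 2.05 to 2.08 in WT, and overlaps in TPM.

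The genes were also split by name and by structure. The 44 genes with numbers in the bacterial range (Mrpl up to 36, Mrps up to 21) had a median level of 48.1 TPM and 4 of them were called, and the 34 genes with higher numbers had a median of 37.3 TPM and 3 called. Their median log2 fold changes were 0.07 and 0.05. All of these calls were higher, where 17.3% of all genes tested were called and 8.61% were called higher. Some names differ from the place of the protein: Mrps30 and Mrps18a are large subunit proteins, and Mrps36 is a component of the alpha-ketoglutarate dehydrogenase complex. With subunits assigned by structure, a split chosen after the data were seen, the ratio of summed CPM was 2.42 in Abcc4-/- and 2.38 in WT, and the calls were the same 6 large and 1 small genes.

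The members were spread over 17 chromosomes, with at most 11 on 1 chromosome (11) and 0 on the X chromosome. On chromosome 14, which carries Abcc4, lay 3 members, and 0 within 20 Mb of Abcc4. A coding gene started head to head, without overlap, within 1000 bases of 18 members, 12 of them in the large subunit. Of these 18 partner genes 1 was called, Mitd1 (higher, adjusted p = 0.0314), where 17.3% of all genes tested were called. Opposite-strand pairs whose starts overlap were not counted, such as Mrpl46 and Mrps11.

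Some counts are uncertain because members share sequence. Transcripts of 18 members have a copy of at least 95% identity over at least 200 bases in a gene elsewhere. Mrpl23 and Mrpl23-ps1 are identical over 540 bases, and the pseudogene was assigned 57.7% as many counts as Mrpl23. Summed over both, the level was 36.3, 36.8 and 34.2 CPM in Abcc4-/- samples and 33.97, 36.2 and 31.04 CPM in WT samples, and the groups overlapped. Among the called genes other than Mrpl53, the copy of Mrps21, Gm6181, held 0.00846% as many counts as Mrps21, and Gm43809, which overlaps Mrpl33 on the same strand, held 0.400% as many as Mrpl33. Same-strand exons of other coding genes overlap Mrps24 (Urgcp), Mrps34 (Nme3) and Mrps6 (Slc5a3), none of which was called.

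Count and TPM of a gene differ by the effective length that RSEM used, which moves with the mix of transcripts and of fragment lengths. The ratio of count to TPM was scaled in each library by its median over 9904 genes with at least 5 TPM in each library. It changed between the genotypes by a log2 ratio, Abcc4-/- over WT, from -0.10 (Mrpl47) to 0.09 (Mrpl1). The median log2 ratio was -0.02 over members, against -0.01 over the 9904 genes used for the scaling. The scaled ratio was lower in all Abcc4-/- samples for 25 of the 78 members and higher in all for 2, against 2514 lower and 819 higher among the 9904 genes. Mrpl33 had ratios of 0.190, 0.201 and 0.207 in Abcc4-/- samples against 0.193, 0.194 and 0.188 in WT samples, and in TPM its groups did not overlap (340 ± 14.8 TPM in Abcc4-/- against 316 ± 9.13 TPM in WT). Mrpl33 was not called on any TPM scale (adjusted p from 0.108 to 0.176).

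**Figure D5:**
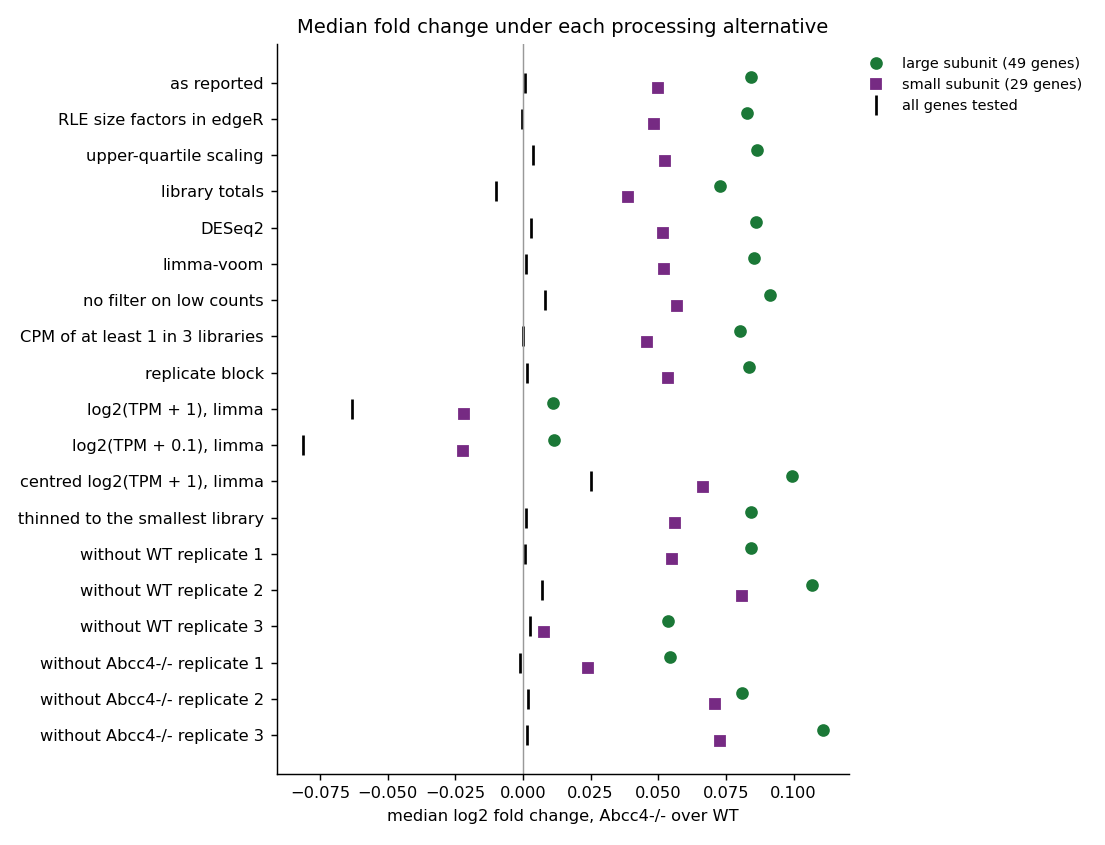
Median log2 fold change, Abcc4-/- over WT, of large subunit genes (circles), small subunit genes (squares) and the 16493 tested genes (ticks) under each setting. The large subunit median stays above the small one throughout, and on the uncentred TPM scales the medians are 0.01 and -0.02 while that of all genes is -0.06 or -0.08.

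Genes that work with the mitochondrial ribosome were described from lists chosen by function. Of 5 mitoribosomal proteins with other symbols (Dap3, Ptcd3, Chchd1, Aurkaip1 and Gadd45gip1), 0 were called in the edgeR test, 2 had an unadjusted p below 0.05, and their median log2 fold change was 0.07. Of 28 genes for ribosome assembly and rRNA maturation, 2 rose and 1 fell, with a median of 0.04. That is 10.7% called, against 17.3% of all genes tested. Ngrn, which is needed for the large subunit rRNA, had 21.4, 22.6 and 22.1 CPM in Abcc4-/- samples and 18.3, 16.9 and 17.1 CPM in WT samples (log2 fold change 0.34, SE 0.06, adjusted p = 0.00276). Ddx28, a helicase of large subunit assembly, had 13.7, 14.03 and 13.6 CPM in Abcc4-/- samples and 16.7, 16.8 and 16.3 CPM in WT samples (-0.27, SE 0.06, adjusted p = 0.00893). Both kept their calls under all 18 alternatives, and neither gene's groups overlapped. Ybey, an RNA-processing endonuclease, was called at an adjusted p of 0.0464 and was above the threshold when any 1 of the 6 libraries was left out (0.0552 to 0.184).

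Of 19 translation factors, 2 rose and 0 fell, with a median log2 fold change of 0.04. That is 10.5% called, against 17.3% of all genes tested. Mtif3, an initiation factor, had 13.4, 14.3 and 13.003 CPM in Abcc4-/- samples and 11.8, 11.5 and 9.72 CPM in WT samples (log2 fold change 0.30, SE 0.08, adjusted p = 0.0287). Taco1, a translational activator of the first cytochrome oxidase subunit, averaged 10.8 ± 0.323 CPM in Abcc4-/- and 9.03 ± 0.712 CPM in WT samples (adjusted p = 0.0466). Mtif3 lost its call if WT replicate 3, Abcc4-/- replicate 1 or Abcc4-/- replicate 2 was left out (0.0677 to 0.120), and Taco1 with each library left out except WT replicate 2 (0.0773 to 0.152).

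Over all genes tested, 17.3% were called and 8.61% were called higher. The 13 mitochondrially encoded messenger RNAs, which this ribosome translates, had a median log2 fold change of 0.21. Of these, 4 rose and 0 fell, 30.8% of the list. They were mt-Nd1 (1887 ± 89.4 CPM in Abcc4-/- and 1549.9 ± 122 CPM in WT samples; log2 fold change 0.28, adjusted p = 0.0176), mt-Nd6 (8.15 ± 1.19 CPM in Abcc4-/- and 5.16 ± 1.05 CPM in WT samples; 0.66, adjusted p = 0.0180), mt-Co1 (9526 ± 69.6 CPM in Abcc4-/- and 7895 ± 805 CPM in WT samples; 0.27, adjusted p = 0.0384) and mt-Cytb (2407 ± 12.3 CPM in Abcc4-/- and 1978 ± 213 CPM in WT samples; 0.28, adjusted p = 0.0271). These levels depend on how a kit for polyadenylated RNA captures mitochondrial transcripts, mt-Nd6 lies on the other strand and is known from human cells to lack a poly(A) tail, and nuclear copies of mitochondrial DNA can share reads. Without 1 library mt-Nd1 lost its call in 2 cases (WT replicate 1 or Abcc4-/- replicate 1), mt-Nd6 in 3 (WT replicate 3, Abcc4-/- replicates 1 and 2), mt-Cytb in 4 (all but WT replicates 2 and 3) and mt-Co1 in 5 (all but WT replicate 3).

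Of 14 regulators of mitochondrial gene expression, 2 rose and 0 fell, with a median log2 fold change of 0.02. That is 14.3% called, against 17.3% of all genes tested. Gabpb1, the partner subunit of the ETS protein Gabpa, had 52.3, 50.2 and 50.2 CPM in Abcc4-/- samples and 42.9, 44.3 and 42.96 CPM in WT samples (log2 fold change 0.23, SE 0.05, adjusted p = 0.00775). Tfam, which packages and transcribes mitochondrial DNA, had 41.1, 39.3 and 38.4 CPM in Abcc4-/- samples and 34.8, 34.8 and 34.4 CPM in WT samples (0.19, SE 0.05, adjusted p = 0.0226). Neither gene's groups overlapped between the genotypes, and Tfam lost its call when replicate 1 or 2 of either genotype was left out (0.0509 to 0.0710). On log2(TPM + 1), the called genes of these functional lists lost their calls except Ngrn, Ddx28 and mt-Nd6.

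Beside these, 2 of 98 tested genes with symbols like those of cytosolic ribosomal proteins were called higher, 2.04%. Their median log2 fold change was -0.01, with 35 above 0. This list was made by symbol (Rpl or Rps and a digit, Rplp and a digit, or Rpsa), which also takes in genes that are not ribosomal proteins. An example is the kinase gene Rps6kl1, which was not tested. How many of the 98 are of this kind was not counted. Of 81 tested genes for nuclear-encoded subunits of oxidative phosphorylation 3 were called higher, 3.70%, with a median of 0.11 and 74 above 0. In the edgeR test 28 of these 81 had an unadjusted p below 0.05. Their Abcc4-/- CPM values lay all above those of WT for 27 and all below for 1. Over all genes tested, 18.4% lay all above and 18.3% all below. The shares called of both lists, like that of the mitochondrial ribosomal protein genes, lay below the 17.3% of all tested genes. Many cytosolic ribosomal protein genes have near-identical pseudogenes, so their counts are uncertain.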

How the data were processed

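Polyadenylated RNA of 6 mouse samples was sequenced from a stranded kit as paired-end reads, per the labels' protocols. The authors deposited expected counts per gene, not normalized, and TPM, scaled within each library. The submitters' processing notes name STAR 2.7, RSEM 1.3.1 and build mm10. The annotation release was not given in the sources used here. All 92 spike-in entries held 0 counts and were left out. Genotypes came from the labels and replicate numbers from the titles.

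After rounding to whole numbers, the expected counts went into edgeR 4.0.16 (R 4.3.3) with TMM scaling and its default filter on low counts. The robust quasi-likelihood test compared Abcc4-/- with WT over 16493 genes. Genes were called at a Benjamini-Hochberg adjusted p below 0.05. Adjusted p-values in the text come from this test over all genes tested unless another tool is named. The script for the test was checked on simulated counts. Log2 CPM used a prior count of 2. Alternatives used DESeq2 1.42.0, limma 3.58.1 on voom values or on the TPM, other scalings and filters, the replicate number as a block, thinning, and each library left out. Subunits by structure were added after the data were seen. Members, lists and tests were chosen with earlier results of these data known, so no p is given for a list.

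Named were Abcc4, called members, the 4 highest and 4 lowest by TPM in each subunit, the 3 with the widest spread, the Mrps18 paralogs and called genes of the functional lists. Marker lists are given as counts and sums, some with a median. Mrpl41, Mrps30, Nfe2, Nkg7 and other genes named for shared sequence or position were chosen after their values were seen. Positions came from the GENCODE M21 annotation of GRCm38 (mm10), matched by versioned identifier for all 78 genes. Copies were found with megablast at a minimum identity of 95% over 200 bases. Each count carries sampling error in addition to the spread between samples, and the lowest member count was 302.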

Additional observations from a re-analysis of the deposited data

Results flagged for a closer look

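Processed pseudogenes of the mitochondrial ribosomal protein genes were outside the comparison, and 4 of them held counts in every library. The lowest count over the 6 libraries was 625.65 for Mrpl23-ps1, 41.47 for Mrpl48-ps, 28.06 for Mrps36-ps1 and 13.76 for Mrps36-ps2. Over all libraries Mrpl23-ps1 held 57.7% as many counts as Mrpl23, Mrps36-ps1 4.63% as many as Mrps36, Mrpl48-ps 3.01% as many as Mrpl48 and Mrps36-ps2 2.32% as many as Mrps36. None of the 4 was called between the genotypes in the edgeR test, with adjusted p of 0.254 for Mrps36-ps2, 0.353 for Mrpl23-ps1, 0.909 for Mrpl48-ps and 0.956 for Mrps36-ps1. Whether these counts are transcripts of the pseudogenes or reads of the parent genes was not tested.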

How the results depend on the processing

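Of the large subunit 6 genes were called and of the small subunit 1. The counts were 3 and 0 with library totals, 1 large gene on log2(TPM + 1) and on log2(TPM + 0.1), and 3 large genes on centred log2(TPM + 1). The small subunit count was 0 with upper-quartile scaling and with thinned counts. Leaving out 1 library gave 1 to 7 large and 0 to 1 small genes, medians of 0.0538 to 0.111 for the large and 0.00773 to 0.0810 for the small subunit. The median log2 fold changes were 0.0112 and -0.0217 (large, small) on log2(TPM + 1), and 0.0114 and -0.0221 on log2(TPM + 0.1). The summed ratio of large over small was 2.15 in Abcc4-/- and 2.13 in WT on the 3 TPM settings, and 2.42 in Abcc4-/- and 2.38 in WT with subunits by structure, where the membership of the sums differs. The cause of the other shifts was not tested. Mrps18a turned to -0.0489 on log2(TPM + 1), -0.0499 on log2(TPM + 0.1), and -0.000628, -0.0307 and -0.000634 without WT replicate 1, WT replicate 3 and Abcc4-/- replicate 3, with a highest value of 0.0808 without WT replicate 2. Mrps18b turned to -0.00898 and -0.00920 on the same 2 TPM scales. Mrpl41 was called with no filter on low counts (adjusted p = 0.0151) and without WT replicate 2 (0.0371). With the replicate number as a block, 5 large and 1 small genes were called, and Mrpl53 was lost (adjusted p = 0.0507). Same-numbered samples correlated at -0.0464, -0.0261 and -0.0145, no sample correlated best with its own number, and the numbers were not taken to pair samples. With all libraries thinned once to the smallest total, 4 members were called against 7, and 2694 of 16127 genes against 2852 of 16493. Library totals without thinning gave 3 called members and upper-quartile scaling 4. A part of depth in the calls was not tested.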
